A study of Danio rerio with 4 samples.

Results

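Transcripts of 57 nuclear pore, importin and exportin genes were followed in whole zebrafish embryos, out of 32057 genes in the deposited table. The members were chosen by symbol, as nucleoporins, importin alpha and beta genes, exportins and genes named for binding Ran, and 55 of them reached 1 TPM (an abundance corrected for transcript length and scaled to the same total in every library) in at least 2 libraries and were tested. There were 4 poly-A RNA libraries. The mutant group (2 libraries) was mdm2-/-, puma-/-, noxa-/- and p21-/-. The control group (2 libraries) consisted of siblings that were mdm2+/- or mdm2+/+ and likewise puma-/-, noxa-/- and p21-/-, so both groups lacked puma, noxa and p21. In the titles the mutant embryos are termed abnormal and their siblings normal, and that description cannot be told apart from the genotype. Titles and design give 18 hpf (hours post-fertilization) and the tissue label gives 30 hpf. The number of embryos in a library, the mutant alleles and the share of mdm2+/- embryos among the siblings are not given in the sources used here. The comparison asked how these transcripts differ when mdm2 is lost from embryos that cannot use puma, noxa or p21. Mdm2 is a ubiquitin ligase that keeps p53 in check.

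The nuclear pore is a channel through the nuclear envelope. It is built from scaffold rings, membrane anchors, and nucleoporins rich in phenylalanine and glycine repeats that line the passage. Importins and exportins are receptors that carry proteins and RNA through it, and the small GTPase Ran gives the traffic its direction, since Ran bound to GTP releases import cargo in the nucleus and joins export cargo there. Pores are assembled into the envelope during interphase and put together again after each mitosis, and dividing embryonic cells need both.

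Markers of muscle, neurons, skin, notochord, blood, endothelium, neural crest, yolk layer and hatching gland were all above 0 in every library. Their sums differed in both directions, as markers of the yolk layer came to 20588 and 20971 TPM in the mutants but 14479 and 14837 TPM in the controls, and neuron markers to 77.1 and 83.7 TPM in the mutants but 171 and 177 TPM in the controls. Within the yolk layer, apoa1a and apoeb were higher, but apoa2 did not pass and overlapped between groups, at 97.0% of the control mean. Of 19 identifiers for cycling cell markers, 18 were lower, 0 were higher and 1 did not pass, where 37.7% of all genes tested were lower and 28.0% higher (limma, Benjamini-Hochberg adjusted p under 0.05). Their sum was 1157 to 1283 TPM in the mutants and 3267 to 3286 TPM in the controls, with no marker at 0. In that sum pcna alone held 730 and 754 TPM in the mutants and 997 and 1003 TPM in the controls, and it fell only to 74.2% of its control mean. The cycling cell markers were lower, as most members described here were. Their median log2 change, on log2(TPM + 1), was -2.01, against -0.92 for the members. Their part in the results was not tested. In bulk embryos, fewer cells of a type and less RNA per cell cannot be told apart.

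Most nuclear pore and transport receptor transcripts were lower in the quadruple mutants. Of the 55 members tested, 44 fell, 4 rose and 7 did not pass, where 65.6% of all genes tested passed in either direction (limma, Benjamini-Hochberg adjusted p under 0.05 over all 16172 genes tested), so that 80.0% of the members were lower against 37.7% of all genes tested, and 7.3% were higher against 28.0%. The median log2 change of the members was -0.92, on the log2(TPM + 1) scale used throughout, against -0.10 for all genes tested. A log2 change of -1 or below that also passed was seen for 24 members, or 43.6%, against 11.5% of all genes tested. Together the 57 members summed to 1372 and 1401 TPM in the mutants and to 2470.4 and 2449 TPM in the controls. Each of the 55 tested members was at 1 TPM or more in every library, the lowest value being 3.07 TPM, so none entered the test through one genotype alone. The other members, the importin alpha gene kpna7 (ENSDARG00000027169), known from mammalian oocytes, and ipo13a (ENSDARG00000076996), stayed below 1 TPM in all 4 libraries. The values of both mutant libraries lay below both controls for 48 members (47.5% of all genes tested) and above both for 5 (35.8% of all genes tested). The pair of mutant libraries had no common order, with mutant 2 above mutant 1 in 27 of 55 members, and the widest gap between them was 0.42 on the log2 scale, for nup42.

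**Figure D1:**
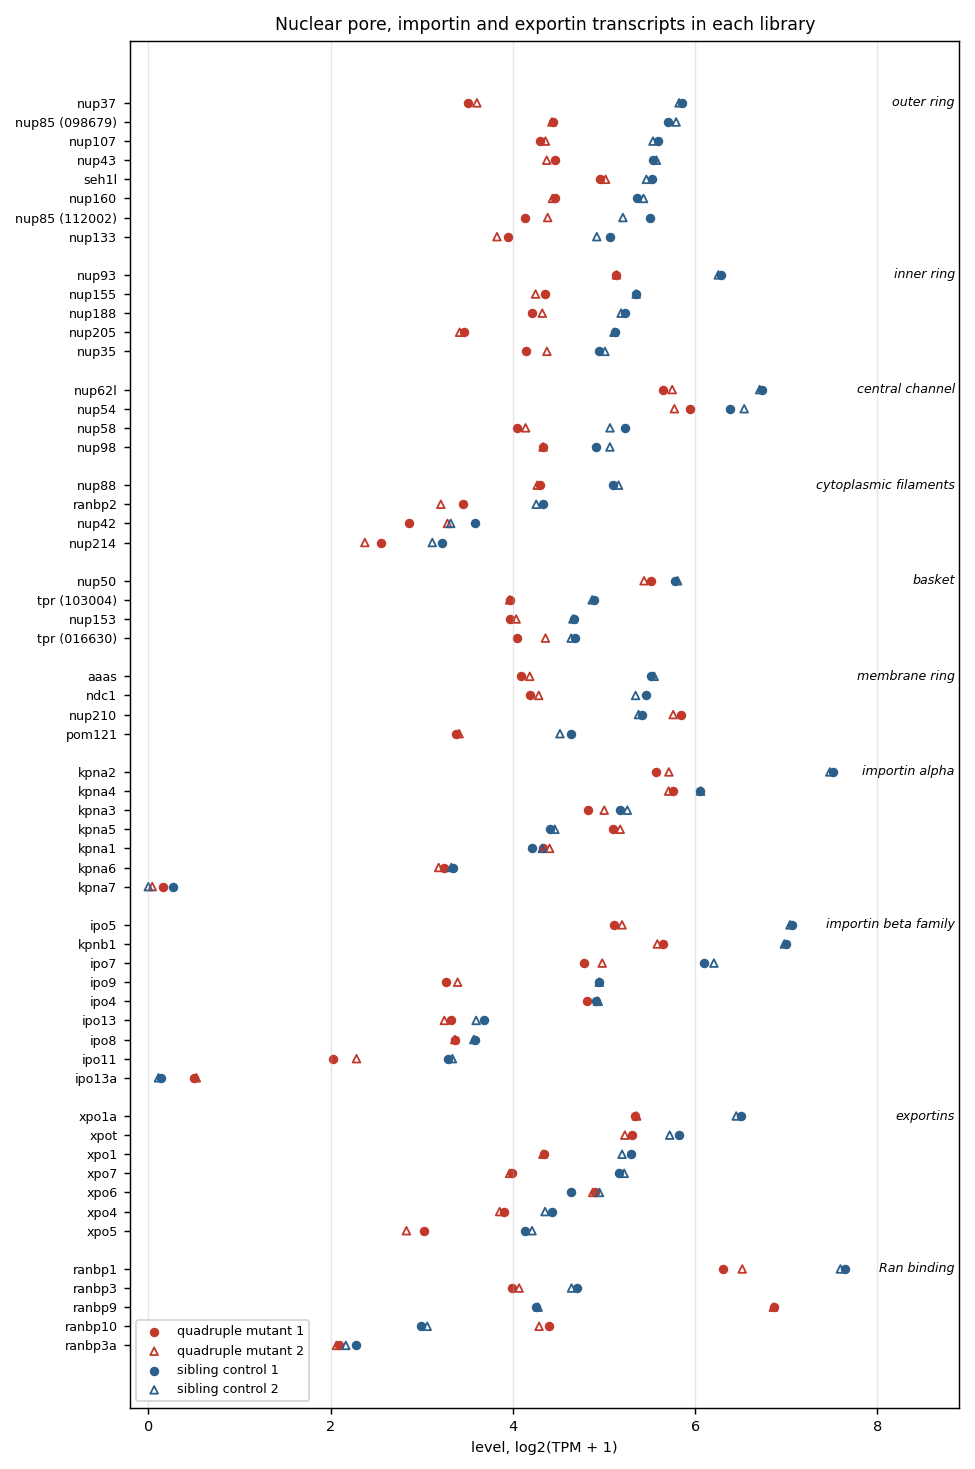
Level of each member in each library, as log2(TPM + 1) on the horizontal axis, with members grouped by role and ordered by control mean; red marks are quadruple mutants, blue marks are sibling controls, and filled circles and open triangles are replicates 1 and 2. The red marks lie to the left of the blue ones for 48 of the tested members and to the right for nup210, kpna5, kpna1, ranbp9 and ranbp10; symbols with 2 identifiers carry the last digits of the identifier.

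The outer ring, or Y complex, is the scaffold that coats both faces of the pore. All 8 of its identifiers fell, where 37.7% of all genes tested were lower, with a median log2 change of -1.12. The largest fall of any member was that of nup37 (ENSDARG00000094191), a peripheral Y complex subunit, at 10.4 and 11.2 TPM in the mutants and 57.0 and 55.7 TPM in the controls (log2 change -2.28, SE 0.076, adjusted p = 8.7e-06). Both mutants held about the same low level, and their mean was 19.1% of the control mean. nup107 (ENSDARG00000016010), a core subunit needed for assembly of the complex, was at 18.7 and 19.5 TPM in the mutants and 47.3 and 45.5 TPM in the controls (log2 change -1.24, SE 0.071, adjusted p = 4.9e-05). nup43 (ENSDARG00000043884), another peripheral subunit, was at 45.3 and 46.7 TPM in the controls and 21.0 and 19.7 TPM in the mutants (log2 change -1.14, SE 0.072, adjusted p = 7e-05). The groups did not overlap for any of these genes. The scaffold genes nup133 (-1.11) and nup160 (-0.95) fell by similar amounts. At the other end stood seh1l (ENSDARG00000004280), whose product also belongs to the GATOR2 complex that acts on mTORC1, at 30.0 and 31.4 TPM in the mutants and 45.1 and 43.2 TPM in the controls (log2 change -0.51, SE 0.069, adjusted p = 0.00114). It was thus the outer ring gene with the smallest change, at 69.5% of the control mean.

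nup85, which forms an arm of the Y together with Seh1, was listed under 2 identifiers. ENSDARG00000098679 was at 20.7 and 20.5 TPM in the mutants and 51.1 and 54.4 TPM in the controls (-1.31, SE 0.070), and ENSDARG00000112002 at 44.4 and 36.0 TPM in the controls and 16.5 and 19.9 TPM in the mutants (-1.099, SE 0.132). Both fell, but the second spread more within each genotype. A RefSeq gene table of the later assembly GRCz12tu names 1 nup85 gene, so these values may share reads and are uncertain as separate genes. With the second identifier left out, an alternative chosen after seeing the data, 43 members were lower.

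The inner ring holds the channel open and anchors the repeat-bearing nucleoporins. All 5 of its genes fell, where 37.7% of all genes tested were lower, with a median of -1.06. The large scaffold gene nup205 (ENSDARG00000042530) was at 10.0 and 9.67 TPM in the mutants and 33.7 and 33.5 TPM in the controls (log2 change -1.67, SE 0.076, adjusted p = 2.4e-05). Its relative nup188 (ENSDARG00000030022), which takes an equivalent place in the ring, was at 17.5 and 19.0 TPM in the mutants and 36.5 and 35.5 TPM in the controls (log2 change -0.94, SE 0.077, adjusted p = 0.00017). Both fell, nup205 to 29.3% and nup188 to 50.8% of the control mean. nup93 (ENSDARG00000003487), the linker that ties the ring to the channel, was the most abundant of the group at 76.9 and 75.3 TPM in the controls and 34.2 and 34.2 TPM in the mutants (log2 change -1.13, SE 0.060, adjusted p = 3.9e-05). The ratio of nup93 to nup205 within a library, both per length, was 3.41 and 3.54 in the mutants and 2.28 and 2.25 in the controls. nup155 (ENSDARG00000001777; -1.05, SE 0.074) and nup35 (ENSDARG00000012222; -0.72, SE 0.098), both of which contact the membrane, completed the group. The change was smallest for nup35.

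Nucleoporins of the central channel form the barrier that receptors cross. All 4 fell, where 37.7% of all genes tested were lower, with a median of -0.84. nup62l (ENSDARG00000020527), a nup62-like gene, was at 49.2 and 52.8 TPM in the mutants and 106 and 104 TPM in the controls (log2 change -1.02, SE 0.063, adjusted p = 6.4e-05). nup58 (ENSDARG00000033965), a partner of Nup62 in the channel, was at 15.5 and 16.6 TPM in the mutants and 36.6 and 32.5 TPM in the controls (log2 change -1.06, SE 0.090, adjusted p = 0.00019). These 2 genes came down to 48.7% and 46.4% of their control means. The third partner, nup54 (ENSDARG00000103296), fell by less, at 82.7 and 92.0 TPM in the controls and 60.5 and 53.7 TPM in the mutants (log2 change -0.61, SE 0.087, adjusted p = 0.00146). nup98 (ENSDARG00000074955), whose transcript also encodes the Y complex subunit Nup96 in vertebrates, was at 19.1 and 19.1 TPM in the mutants and 29.0 and 32.5 TPM in the controls (log2 change -0.65, SE 0.084, adjusted p = 0.00093). Neither gene reached a log2 change of -1.

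Of 4 genes on the cytoplasmic face, 3 fell (75.0%, against 37.7% of all genes tested), with a median of -0.78. ranbp2 (ENSDARG00000093125), the gene of the giant filament protein that holds RanGAP1 and acts as a SUMO ligase, was at 9.92 and 8.25 TPM in the mutants and 19.2 and 18.1 TPM in the controls (log2 change -0.97, SE 0.11, adjusted p = 0.00059). nup88 (ENSDARG00000003235; -0.85, SE 0.072) and nup214 (ENSDARG00000016212; -0.71, SE 0.117), which form one complex on that face, fell as well. The mRNA export factor gene nup42 (ENSDARG00000029043) was at 11.0 and 8.97 TPM in the controls and 6.26 and 8.73 TPM in the mutants and did not pass (log2 change -0.38, SE 0.172, adjusted p = 0.0975). Its mutant 2 value lay close to control 2, and single libraries decided its size. Its log2 change was -0.59 (limma adjusted p = 0.0203) without mutant replicate 2 and -0.17 (adjusted p = 0.352) without mutant replicate 1. Leaving out control replicate 1 or 2 gave -0.25 and -0.52 (adjusted p = 0.374 and 0.0918).

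The basket on the nuclear face was the nucleoporin group with the smallest median change, -0.56. All 4 of its identifiers fell, where 37.7% of all genes tested were lower. nup153 (ENSDARG00000099972), which docks the basket to the pore, was at 14.7 and 15.4 TPM in the mutants and 24.6 and 24.3 TPM in the controls (log2 change -0.66, SE 0.077, adjusted p = 0.00063). nup50 (ENSDARG00000017454), which helps to release importin alpha cargo, was at 44.9 and 42.4 TPM in the mutants and 54.1 and 55.0 TPM in the controls (log2 change -0.32, SE 0.065, adjusted p = 0.00636). It came down to 80% of the control mean only, and this call was lost under median ratio scaling (log2 change -0.18, adjusted p = 0.0625). Without control replicate 1 or 2 it was lost too, with log2 changes of -0.33 and -0.30 (adjusted p = 0.0511 and 0.0635). tpr, which encodes the long coiled-coil protein of the basket filaments, was listed under 2 identifiers. ENSDARG00000103004 was at 28.8 and 28.3 TPM in the controls and 14.6 and 14.6 TPM in the mutants (-0.92, SE 0.074). ENSDARG00000016630 was at 15.5 and 19.5 TPM in the mutants and 24.6 and 23.9 TPM in the controls (-0.46, SE 0.117), with a wider gap between the mutants, and this call was lost without control replicate 1 or 2, with log2 changes of -0.44 and -0.48 (adjusted p = 0.0751 and 0.0585). Without mutant replicate 1 its log2 change was -0.30, and without mutant replicate 2 it was -0.61. How reads common to both tpr copies were assigned cannot be read from the TPM.

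Membrane nucleoporins went both ways. The anchor gene ndc1 (ENSDARG00000021120) was at 17.3 and 18.5 TPM in the mutants and 43.2 and 39.7 TPM in the controls (log2 change -1.17, SE 0.081, adjusted p = 9.4e-05). aaas (ENSDARG00000102274), whose product ALADIN is held at the pore by Ndc1 and is altered in human triple A syndrome, was at 44.7 and 45.9 TPM in the controls and 16.0 and 17.2 TPM in the mutants (log2 change -1.40, SE 0.074, adjusted p = 3.9e-05). pom121 (ENSDARG00000055113), a membrane protein of early pore assembly, was at 9.36 and 9.63 TPM in the mutants and 24.0 and 21.9 TPM in the controls (log2 change -1.19, SE 0.088, adjusted p = 0.00012). The mutant means of these 3 genes were 36.7% to 43.1% of the control means. The exception was nup210 (ENSDARG00000063333), the membrane glycoprotein gene whose mouse counterpart is switched on as muscle and neural precursors differentiate, at 56.4 and 53.2 TPM in the mutants and 41.9 and 40.6 TPM in the controls (log2 change 0.40, SE 0.066, adjusted p = 0.00266). It was the 1 nucleoporin of 29 that rose, and both mutants lay above both controls. The ratio of nup210 to pom121 within a library went from 1.75 and 1.86 in the controls to 6.03 and 5.52 in the mutants. Across all 29 nucleoporin identifiers, 27 fell, 1 rose and 1 did not pass, and their median log2 change was -0.97. Thus 93.1% were lower and 3.4% higher, against 37.7% and 28.0% of all genes tested.

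**Figure D2:**
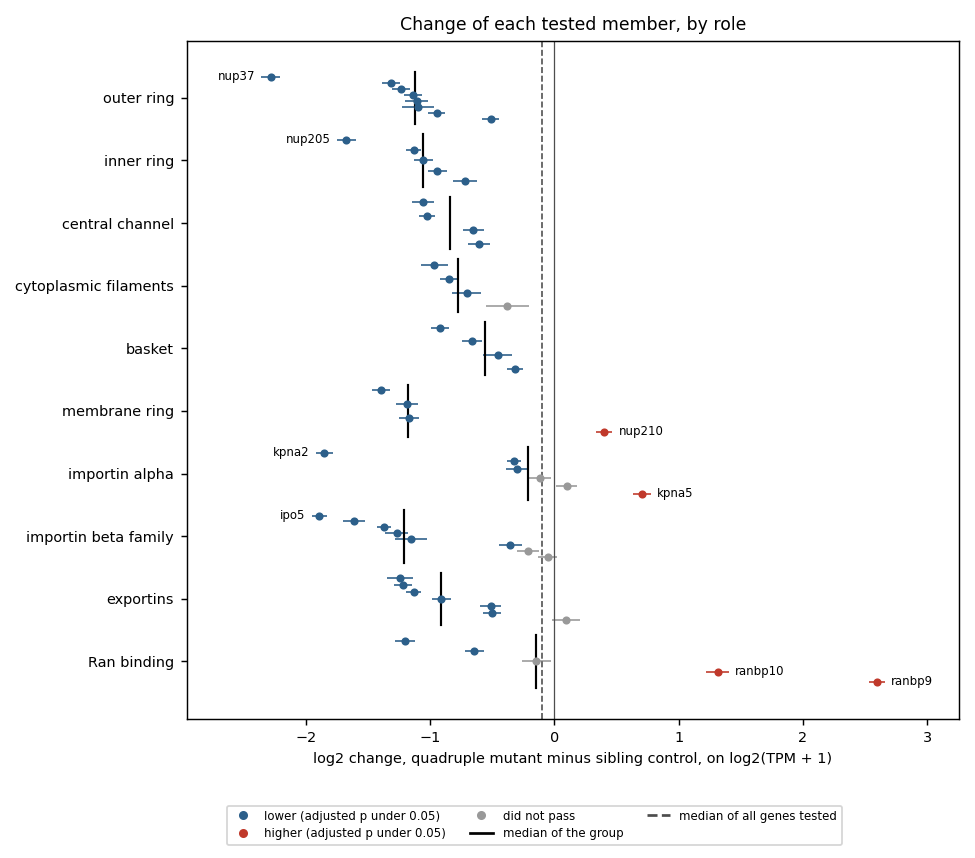
Log2 change of each tested member, mutant minus control in log2(TPM + 1), by role; points are members, horizontal bars are 1 SE either side from limma, black lines are group medians and the dashed line is the median of all genes tested (-0.10). The scaffold rings and the importin beta family lie mostly near or below -1. To the right of 0 lie nup210, kpna5, ranbp10 and ranbp9, which passed as higher. kpna1 (0.10) and xpo6 (0.09), which did not pass, lie there too.

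Importin alpha proteins are the adaptors that recognise classical nuclear localization signals and hand the cargo to importin beta 1. Of 7 genes, 6 were tested; 3 fell, 1 rose and 2 did not pass, with a median of -0.21. Of all genes tested 37.7% were lower and 28.0% higher, and 1 of the 3 falls counted here, that of kpna3, was lost under 3 settings. kpna2 (ENSDARG00000038066), the importin alpha gene that is abundant in dividing and pluripotent mouse cells, was at 182 and 177 TPM in the controls and 46.5 and 51.4 TPM in the mutants (log2 change -1.85, SE 0.068, adjusted p = 1.2e-05). The mutants thus held 27.3% of the control mean. kpna5 (ENSDARG00000042030) moved the other way, at 33.2 and 35.2 TPM in the mutants and 20.2 and 21.0 TPM in the controls (log2 change 0.70, SE 0.074, adjusted p = 0.00043). It was the only import or export receptor gene of the 21 tested that passed as higher with the values as deposited. kpna1 (ENSDARG00000016360) and kpna6 (ENSDARG00000044980), which belong to the same subfamily as kpna5, did not pass. kpna1 was at 19.1 and 20.1 TPM in the mutants and 17.5 and 19.0 TPM in the controls (log2 change 0.10, adjusted p = 0.336) and passed as higher under median ratio scaling (0.23, adjusted p = 0.046). kpna6 was at 9.12 and 9.02 TPM in the controls and 8.47 and 8.10 TPM in the mutants (log2 change -0.12, adjusted p = 0.308; 0.01 under median ratio scaling).

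The genes of the remaining subfamily, kpna3 and kpna4, fell by less than kpna2. kpna4 (ENSDARG00000023190) was at 53.0 and 51.3 TPM in the mutants and 65.5 and 65.7 TPM in the controls (log2 change -0.33, SE 0.060, adjusted p = 0.00393), and its log2 change was -0.19 under median ratio scaling (adjusted p = 0.0369). kpna3 (ENSDARG00000052641) was at 27.2 and 31.1 TPM in the mutants and 35.1 and 37.2 TPM in the controls (log2 change -0.30, SE 0.088, adjusted p = 0.0231), a call lost under median ratio scaling (-0.17, adjusted p = 0.111) and without control replicate 1 or 2 (-0.34 and -0.27, adjusted p = 0.0737 and 0.144). The share of each gene in the importin alpha transcripts of a library follows from these levels. kpna2 made up 55.2% and 53.8% of the summed importin alpha TPM in the controls and 24.8% and 26.1% in the mutants. kpna5 went from 6.14% and 6.38% to 17.7% and 17.8%, and kpna1 from 5.30% and 5.78% to 10.2% in each mutant. In the mutants kpna4 stood level with kpna2, at 28.2% and 26.0% of the sum, whereas in the controls it made up 19.9% and 20.0%. These shares are descriptions without a test, and the total they divide was itself lower, 188 and 197 TPM in the mutants but 329.4 and 329.3 TPM in the controls.

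**Figure D3:**
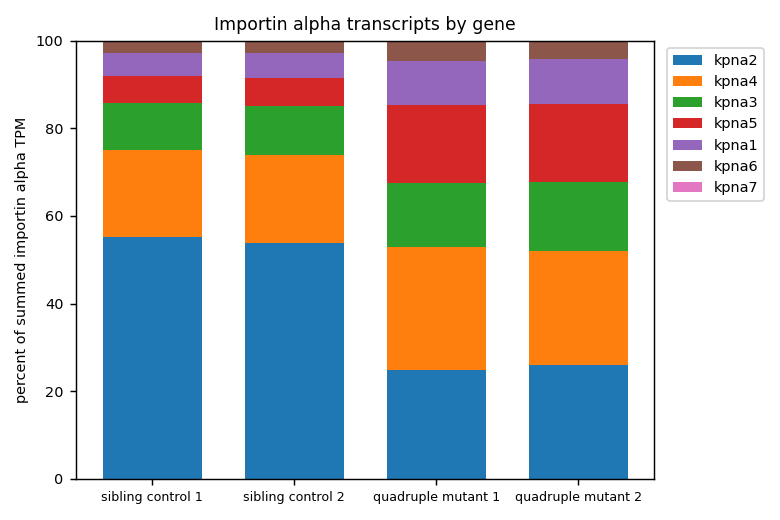
Share of the summed importin alpha TPM taken by each of the 7 genes in each library, in percent, as stacked bars. kpna2 (bottom, blue) takes 55.2% and 53.8% in the sibling controls and 24.8% and 26.1% in the quadruple mutants, while the kpna5 block (red) widens from 6.14% and 6.38% to 17.7% and 17.8%; kpna7 is too low to be seen.

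Importin beta family members carry cargo through the pore themselves. Of the 8 tested, 6 fell (75.0%, against 37.7% of all genes tested), with a median of -1.21. ipo5 (ENSDARG00000040245), an import receptor for ribosomal proteins and core histones, was at 132 and 131 TPM in the controls and 33.7 and 35.7 TPM in the mutants (log2 change -1.89, SE 0.062, adjusted p = 8.4e-06). ipo9 (ENSDARG00000016753), the receptor for the H2A-H2B histone dimer, was at 8.63 and 9.51 TPM in the mutants and 29.7 and 29.9 TPM in the controls (log2 change -1.61, SE 0.086, adjusted p = 3.9e-05). kpnb1 (ENSDARG00000104889), the importin beta 1 gene and partner of the importin alpha adaptors, was at 49.1 and 47.0 TPM in the mutants and 127 and 125 TPM in the controls (log2 change -1.37, SE 0.058, adjusted p = 1.9e-05). The 3 genes came down to 26.4%, 30.5% and 38.1% of their control means, with no overlap between groups. ipo7 (ENSDARG00000035751), which imports ribosomal proteins and, with importin beta 1, linker histone, was at 67.4 and 72.8 TPM in the controls and 26.4 and 30.6 TPM in the mutants (log2 change -1.27, SE 0.091, adjusted p = 0.0001). Its close relative ipo8 (ENSDARG00000058159) was at 9.34 and 9.29 TPM in the mutants and 11.0 and 10.9 TPM in the controls and did not pass (log2 change -0.21, SE 0.088, adjusted p = 0.0785). ipo7 was thus the more abundant of this pair in every library.

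ipo4 (ENSDARG00000041493), an import receptor for histones H3 and H4, did not pass and overlapped between groups, at 27.0 and 29.5 TPM in the mutants and 29.0 and 29.6 TPM in the controls (log2 change -0.05, SE 0.076, adjusted p = 0.566); its sign turned under median ratio scaling (0.08) and without mutant replicate 1 (0.01). The ratio of ipo5 to ipo4 within a library was 4.56 and 4.41 in the controls and 1.25 and 1.21 in the mutants. ipo11 (ENSDARG00000054224), an importer of ubiquitin-conjugating enzymes, fell by 1.16 (SE 0.127) from a low level of 8.75 and 9.10 TPM. ipo13 (ENSDARG00000060618), a receptor that works in both directions, was at 11.8 and 11.1 TPM in the controls and 8.97 and 8.50 TPM in the mutants (log2 change -0.35, SE 0.094, adjusted p = 0.0169). The call for ipo13 was lost under median ratio scaling (-0.23, adjusted p = 0.0773) and without control replicate 1 or 2 (-0.31 and -0.40, adjusted p = 0.119 and 0.0646). Its copy ipo13a was listed at 0.42 and 0.44 TPM in the mutants and at 0.10 and 0.08 TPM in the controls, too low to be tested. Summed over 9 genes, the family stood at 167 and 174 TPM in the mutants but 417 and 419 TPM in the controls.

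Of 7 exportin genes, 6 fell (85.7%, against 37.7% of all genes tested) and 1 did not pass, with a median of -0.91. The 2 copies of the gene for Crm1, the general receptor for leucine-rich export signals, both fell. xpo1a (ENSDARG00000078041) was at 39.4 and 40.0 TPM in the mutants and 90.0 and 86.5 TPM in the controls (log2 change -1.13, SE 0.061, adjusted p = 4e-05). xpo1 (ENSDARG00000063229) was at 19.3 and 19.1 TPM in the mutants and 38.3 and 35.7 TPM in the controls (log2 change -0.91, SE 0.074, adjusted p = 0.00017). The share of xpo1a in the sum of both copies was 67.1% and 67.7% in the mutants and 70.1% and 70.8% in the controls. xpo7 (ENSDARG00000005540), a receptor with broad cargo, was at 35.0 and 36.3 TPM in the controls and 14.9 and 14.6 TPM in the mutants (log2 change -1.22, SE 0.073, adjusted p = 5.8e-05). xpo5 (ENSDARG00000098868), which exports microRNA precursors, was at 7.16 and 6.12 TPM in the mutants and 16.6 and 17.5 TPM in the controls (log2 change -1.24, SE 0.106, adjusted p = 0.00019). These falls, to 41.3% and 38.9% of the control means, were the largest among the exportins. The tRNA exporter gene xpot (ENSDARG00000099652; -0.50, SE 0.072) and xpo4 (ENSDARG00000010281; -0.51, SE 0.082), which exports the translation factor eIF5A, changed by less. xpo6 (ENSDARG00000041217), the exporter of actin bound to profilin, was at 28.8 and 28.4 TPM in the mutants and 23.9 and 29.9 TPM in the controls and did not pass (log2 change 0.09, SE 0.113, adjusted p = 0.502). The controls of xpo6 spread across the mutant values, and the sign turned without control replicate 1 (-0.06). In the sum of exportin TPM, xpo6 took 17.8% and 17.9% in the mutants against 8.54% and 10.8% in the controls. The sum that this share divides was itself lower, at 162 and 158 TPM in the mutants but 280 and 277 TPM in the controls.

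Apart from ranbp2, described with the cytoplasmic filaments, 5 genes were named for binding Ran. Of these, 2 fell, 2 rose and 1 did not pass. That is 40.0% lower and 40.0% higher, where 37.7% and 28.0% of all genes tested were, so the lower share was near that of all genes. ranbp1 (ENSDARG00000014817), which helps RanGAP1 to switch off Ran, had the highest level of any member in the controls and was at 198 and 192 TPM in the controls and 78.2 and 90.6 TPM in the mutants (log2 change -1.21, SE 0.081, adjusted p = 8.3e-05). ranbp3 (ENSDARG00000069056), a cofactor of Crm1, was at 14.9 and 15.8 TPM in the mutants and 25.1 and 24.0 TPM in the controls (log2 change -0.64, SE 0.079, adjusted p = 0.0008). Both fell, and neither overlapped between groups. The copy ranbp3a (ENSDARG00000008727) was at 3.25 and 3.18 TPM in the mutants and 3.84 and 3.49 TPM in the controls and did not pass (log2 change -0.15, adjusted p = 0.308). ranbp9 (ENSDARG00000061048) was at 18.1 and 18.4 TPM in the controls and 116 and 115 TPM in the mutants (log2 change 2.60, SE 0.061, adjusted p = 3.1e-06). It was the member with the largest rise, 6.33 times the control mean, and the mutants held more of it than of any other member. Its relative ranbp10 (ENSDARG00000062138) was at 20.0 and 18.5 TPM in the mutants and 6.97 and 7.34 TPM in the controls (log2 change 1.31, SE 0.092, adjusted p = 9.7e-05), or 2.69 times the control mean. Proteins encoded by ranbp9 and ranbp10 are scaffolds of the CTLH ubiquitin ligase and have no Ran-binding domain of the RanBP1 type, so their names do not place them in transport.

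Other genes of nuclear transport and of the envelope, in a list that the symbol rule does not reach, were examined beside the members. Of 46 identifiers tested, 35 fell, 2 rose and 9 did not pass, or 76.1% lower against 37.7% of all genes tested, with a median log2 change of -0.62. In the Ran cycle, ran (ENSDARG00000057026) itself was at 677 and 730.4 TPM in the mutants and 1664 and 1599 TPM in the controls (log2 change -1.21, SE 0.055, adjusted p = 2.3e-05). Both rangap1 identifiers fell, ENSDARG00000056059 with a log2 change of -1.097 (SE 0.087) and ENSDARG00000041317 with -0.67 (SE 0.086); their product switches Ran off in the cytoplasm. rangrf (ENSDARG00000098786), whose product binds Ran and helps it to release its nucleotide, was at 9.59 and 8.69 TPM in the controls and 4.88 and 4.00 TPM in the mutants (log2 change -0.90, SE 0.126, adjusted p = 0.0013). rcc1 (ENSDARG00000037158), the gene of the exchange factor that charges Ran on chromatin, went against these, at 48.8 and 49.0 TPM in the mutants and 41.1 and 41.6 TPM in the controls (log2 change 0.24, SE 0.061, adjusted p = 0.016). Its log2 change was 0.37 under median ratio scaling (adjusted p = 0.00241). Without control replicate 1 or 2 the call for rcc1 was lost, with log2 changes of 0.23 and 0.24 (adjusted p = 0.124 and 0.105), and 1 gene of the list was then higher.

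Of the nucleoporin genes outside the rule, ahctf1 (ENSDARG00000077530), encoding ELYS, which seeds pores on chromatin after mitosis, was at 6.19 and 6.10 TPM in the mutants and 18.3 and 17.7 TPM in the controls (log2 change -1.41, SE 0.088, adjusted p = 6.7e-05), and rae1 (ENSDARG00000007196), an mRNA export factor held by Nup98, fell by 0.71 (SE 0.066). sec13 (ENSDARG00000054807), which serves both the Y complex and the COPII vesicle coat, did not pass at 185 and 183 TPM in the controls and 177 and 173 TPM in the mutants (log2 change -0.07, adjusted p = 0.251; 0.07 under median ratio scaling). gle1 (ENSDARG00000043559), an mRNA export factor on the cytoplasmic face, did not pass either (log2 change 0.07, adjusted p = 0.549). All 9 receptor identifiers outside the rule fell, where 37.7% of all genes tested were lower, with a median of -0.66. tnpo2a (ENSDARG00000038239; -0.48, SE 0.072) and tnpo2b (ENSDARG00000113296; -0.88, SE 0.119) share a symbol stem with tnpo2, so the 9 identifiers may not be 9 separate receptor genes. Among them, cse1l (ENSDARG00000006963), the exporter that returns importin alpha to the cytoplasm, fell by 1.003 (SE 0.105), tnpo2 (ENSDARG00000042887), a transportin that imports RNA-binding proteins, by 0.85 (SE 0.071), snupn (ENSDARG00000008395), the import adaptor of spliceosomal particles, by 0.66 (SE 0.076), and nmd3 (ENSDARG00000015676), the export adaptor of the large ribosomal subunit, by 0.60 (SE 0.067).

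In mRNA export 11 of 16 identifiers fell (68.8%, against 37.7% of all genes tested) and 5 did not pass, with a median of -0.53. Those that did not pass were nxf1b (log2 change -0.08), nxt2 (-0.08), mcm3ap (-0.19), ddx39b (0.08) and thoc1 (0.11). The lowest p-values belonged to the helicase gene ddx39a (ENSDARG00000015111; -0.92, SE 0.044), the THO complex genes thoc6 (ENSDARG00000037966; -1.01, SE 0.079) and thoc3 (ENSDARG00000056517; -0.78, SE 0.069), and the TREX-2 gene pcid2 (ENSDARG00000013802; -1.33, SE 0.107). The other ddx39a identifier, ENSDARG00000006225, fell by less (-0.46, SE 0.047). In the lamina and envelope group, 8 of 11 fell, 1 rose and 2 did not pass, with a median of -0.998. That is 72.7% lower and 9.1% higher, against 37.7% and 28.0% of all genes tested. lbr (ENSDARG00000014013), the lamin B receptor gene, was at 7.98 and 10.9 TPM in the mutants and 60.7 and 58.0 TPM in the controls (log2 change -2.54, SE 0.14, adjusted p = 4.3e-05). The B-type lamin genes lmnb1 (ENSDARG00000044299; -1.28, SE 0.057) and lmnb2 (ENSDARG00000101624; -1.29, SE 0.067) and tmpoa (ENSDARG00000007315; -1.31, SE 0.071), one of 2 copies of the lamina-associated gene tmpo, fell too. The A-type lamin gene lmna did not pass (log2 change -0.09, adjusted p = 0.45), with values that overlapped between groups. sun1 (ENSDARG00000055350), which links the envelope to the cytoskeleton, rose, at 40.7 and 38.3 TPM in the mutants and 24.4 and 23.4 TPM in the controls (log2 change 0.70, SE 0.073, adjusted p = 0.00042). The like-named sun1a (ENSDARG00000077178) was too low to be tested, at 0.22 and 0.11 TPM in the mutants and 0.55 and 1.33 TPM in the controls. sun2 (ENSDARG00000086490) did not pass (log2 change -0.17).

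**Figure D4:**
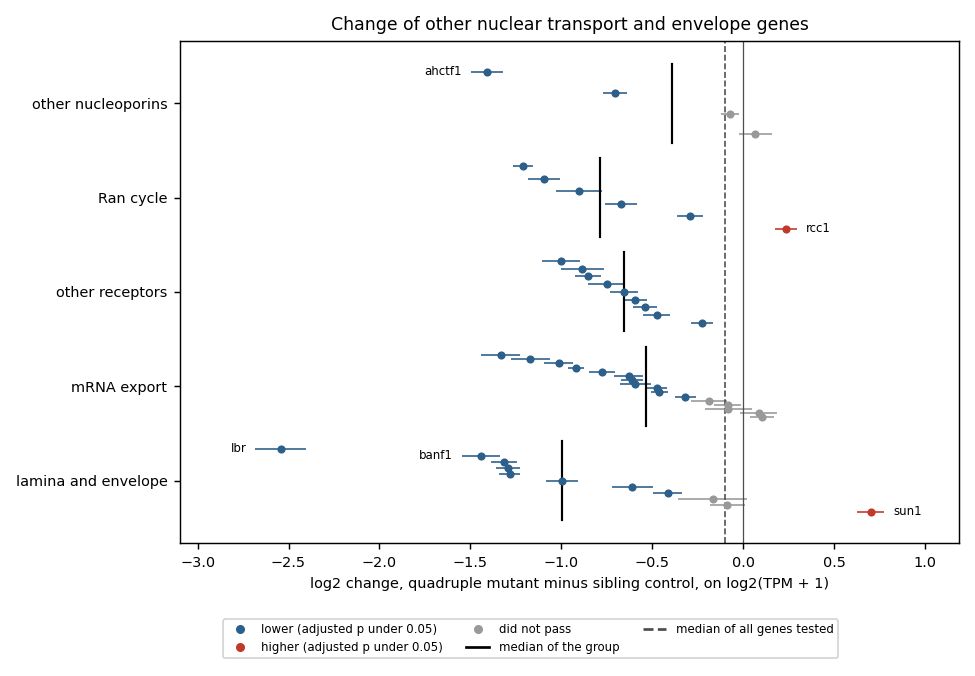
Log2 change of 46 tested identifiers for other nuclear transport and envelope genes, mutant minus control in log2(TPM + 1), by subgroup; points are genes, horizontal bars are 1 SE either side from limma, black lines are subgroup medians and the dashed line is the median of all genes tested (-0.10). Most points lie left of 0, with lbr farthest left at -2.54, and rcc1 and sun1 are the 2 that passed as higher.

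Scaling bears on all of these values, since TPM has a fixed total and a rise of abundant transcripts lowers the rest. Median ratio scaling moved the median log2 change of all genes tested by 0.118, and the share of calls that were higher from 42.6% to 51.3% of all calls. With it 41 members were lower and 5 higher, where 32.0% and 33.7% of all genes tested were. Of the 46 identifiers for other transport and envelope genes, 33 were lower and 3 higher under this scaling, against 35 and 2 as deposited. With 2 libraries per genotype the smallest p of an exact permutation test is 0.333, so the adjusted p-values rest on a spread pooled over genes by limma. The labels do not say whether the libraries are separate clutches, and the spread between them may be technical.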

How the data were processed

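Poly-A RNA was sequenced from whole embryos in 4 libraries, 2 per genotype; groups and replicate numbers were taken from the titles. The authors deposited TPM with 2 decimals for 32057 Ensembl identifiers, each library summing to 1e+06 within rounding. The submitters' processing notes list the build GRCz11 with DESeq2 1.42.1, HTSeq 0.12.3, R 4.3.3, RSEM 1.3.3 and STAR 2.7.3a, without saying which made the TPM; annotation and strand setting are not given in the sources used here. Since TPM keeps no depth, depth is unknown and no counting interval was computed, and no count model was used.

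A table of gene names gave symbols to 28988 identifiers; it mixes zebrafish and human symbols, printed here in lower case. The symbol rule found 62 identifiers, of which 5 that only begin with tpr were dropped. limma 3.58.1 (R 4.3.3) was run on log2(TPM + 1) of the 16172 genes that reached 1 TPM in 2 or more libraries, with a variance trend, 3.91 prior and 2 residual degrees of freedom, and Benjamini-Hochberg adjustment over those genes (threshold 0.05). Every adjusted p here comes from limma, and from this fit unless another setting is named beside it. Changes are quadruple mutant minus sibling control, and the scale understates changes of low genes. On simulated data with few changed genes, each with a log2 change of at least 1 in either direction, the fit recovered nearly all of them. The share of false calls there lay somewhat above the threshold. Smaller changes were not simulated, so their recovery is unknown. The changed genes were drawn only from those above a set control level. In the deposited data 65.6% of all genes tested passed, so the simulation does not show how the fit behaves at such a share. SD over 2 libraries is not printed because both values are.

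The members and lists were chosen with earlier results of these data known, so no list was tested as a set. Named were members that did not pass or went against their role group, the 4 lowest p-values of each role group, copies under like symbols, the highest level in each genotype, and by the same rule 4 of each subgroup of the other transport genes; further names (among them nup133, nup35, lmna and the CTLH genes) were chosen after their values were seen or complete a group. Of 44 symbols in that other list, 3 had no match. Protein and promoter sequences were not used here. The alternatives tried were a pseudocount of 0.1 or 5 TPM, no filter, a minimum of 5 TPM, median ratio and quantile scaling, no variance trend, a replicate block and each library left out in turn. Python 3.11.15 (pandas 2.3.3, matplotlib 3.10.9) was used for summaries and figures.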

Additional observations from a re-analysis of the deposited data

How the results depend on the processing

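Of the 48 members called, 44 were called in the same direction under all 13 settings, the deposited values included; nup50, kpna3, ipo13 and 1 tpr identifier were not. The number of lower members was 41 to 44 under the scaling, filter, pseudocount and trend settings, and the number of higher members 4 or 5. With a minimum of 5 TPM, 44 of 54 members tested were lower and 4 higher, where 40.7% and 31.4% of all genes tested at that minimum were. Importin and exportin members that were higher numbered 2 in place of 1 without a filter and under median ratio scaling. The members' median log2 change was -0.92, and it was -0.96 and -0.75 with pseudocounts of 0.1 and 5 TPM, -0.785 under median ratio scaling and -0.906 under quantile normalization. Leaving out single libraries gave medians of -0.931 to -0.902, 40 to 45 lower members, 25 to 28 lower nucleoporins and 1 or 2 higher genes among the other transport genes. Signs turned for sec13 (0.068), kpna6 (0.009) and ipo4 (0.083) under median ratio scaling, for ipo4 without mutant replicate 1 (0.007, and -0.114 without mutant replicate 2) and for xpo6 without control replicate 1 (-0.063, and 0.248 without control replicate 2), none of which passed before; the cause was not tested. Among the other transport and envelope genes, signs were followed only for those named by the rule, so not for others such as nxf1b, nxt2 and lmna. The replicate block gave 44 lower and 4 higher members, and 6062 lower and 4457 higher genes in all. Same-numbered libraries share only a number, and their deviations had a correlation of 0.049 across genes, so no pairing was used. When a genotype had 1 library, it was assumed to vary like the other. Depth is unknown from TPM, so counting error of the low members could not be set beside these values.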

Other observations

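Other genes of the CTLH ubiquitin ligase, to which Ranbp9 and Ranbp10 belong, were listed after the values of ranbp9 and ranbp10 were seen, and the list was not tested as a set. Of 10 identifiers, 7 were higher, 0 were lower and 3 did not pass, where 28.0% of all genes tested were higher. The calls come from the main fit only, and the other settings were not examined for this list. Both copies of wdr26, a subunit that recruits substrates, were higher: ENSDARG00000062310 was at 9.59 and 9.74 TPM in the controls and 24.8 and 20.7 TPM in the mutants (log2 change 1.15, SE 0.107, adjusted p = 0.00027), and ENSDARG00000006812 at 27.9 and 26.0 TPM in the mutants and 14.8 and 14.1 TPM in the controls (log2 change 0.86, SE 0.081, adjusted p = 0.00028). The catalytic subunit gene maea (ENSDARG00000053691) was at 34.7 and 36.0 TPM in the mutants and 29.4 and 28.8 TPM in the controls (log2 change 0.27, SE 0.068, adjusted p = 0.0132), and its RING partner gene rmnd5b (ENSDARG00000043359) at 34.5 and 34.3 TPM in the controls and 49.7 and 46.2 TPM in the mutants (log2 change 0.47, SE 0.069, adjusted p = 0.00171). Both gid8 identifiers (0.51 and 0.49) and ypel5 (0.46) rose as well. The substrate receptor gene gid4 (-0.26), armc8 (-0.15) and mkln1 (-0.22) did not pass. None of these rises was as large as that of ranbp9 (2.60) or ranbp10 (1.31).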
